A study of Mus musculus with 15 samples.

Results

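Immune checkpoint genes encode surface receptors that restrain or license lymphocytes and the ligands that engage them. The 9 genes described are Pdcd1, Lag3, Havcr2 and Icos (receptors), Cd274 and Pdcd1lg2 (ligands of PD-1), Cd80 and Cd86 (B7 ligands) and Vsir (VISTA), out of 33321 genes in the count table. The set was taken by gene symbol. It was chosen by measured values of these same libraries, and which of these values were used is not recorded. In LPC-injured tissue against the saline site, Pdcd1 and Icos had already been seen to be called higher while CD3 transcripts of T cells were nearly absent. For that reason the comparison of LPC-injured tissue with the saline site is given below as a description only.

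RNA came from mouse corpus callosum, the tract that joins the hemispheres, in 15 libraries, 3 in each of 5 groups. Sham-Ipsil is the site injected with saline in sham-operated mice. LPC-Ipsil is the injection site of lysophosphatidylcholine, a lipid that strips myelin, and LPC-Contra is the opposite side of the callosum. LNIO-Ipsil is the injection site of L-NIO, which blocks endothelial nitric oxide synthase and serves as a model of white matter stroke (WMS in the labels), and LNIO-Contra is its opposite side. Tissue of the LPC and L-NIO groups was taken on day 4, and the labels name no separate day for sham tissue. The labels give no strain, sex or age, and no uninjected sham side is among the groups. Whether each library of a group is a separate mouse is not stated, so the p-values reflect only how much these samples vary, and part of that may be technical.

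PD-1, LAG-3, TIM-3 and ICOS are best known from T cells. PD-1 and LAG-3 dampen signalling through the T cell receptor after binding PD-L1 or PD-L2 and MHC class II, TIM-3 has galectin 9 among its ligands, and ICOS is a costimulator. CD80 and CD86 on antigen-presenting cells bind the activator CD28 and the inhibitor CTLA-4. Myeloid cells, microglia included, express VISTA, TIM-3 and CD86, and PD-1 can be found on activated myeloid cells.

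Library totals ran from 14896445 to 20916606 counts. LPC-Ipsil replicate 3 stood apart from its group: the summed level of 9 microglial identity genes was 464 CPM (counts relative to the library total, TMM-scaled) there, against 2445 and 1677 CPM in replicates 1 and 2 and 331 to 394 CPM in Sham-Ipsil. LPC-Contra replicate 2 also stood apart, with a chi-square per degree of freedom of 62.4 and 62.9 against the other libraries of its group, which differed from each other by 17.7. By this measure Sham-Ipsil replicate 1 (30.6 and 33.1, against 10.7) and LNIO-Ipsil replicate 1 (51.1 and 41.1, against 24.4) also differed more from their groups. Call counts from leaving out each library in turn are given at the end. Values without LPC-Ipsil replicate 3 and LPC-Contra replicate 2 are given for the main results that use them. Both were picked out after the data were seen. LPC-Ipsil replicate 3 was picked out by microglial genes, whose levels moved with those of most members. Adjusted p values without it therefore show how far a result depends on this library and are no added support. The tissue label was borne out by its defining markers, with the summed level of 6 oligodendrocyte genes at 14850 CPM or above in each of the 15 libraries. In bulk tissue, fewer cells of a type and less RNA per cell cannot be told apart.

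Promoter sequences were matched by symbol for 6 of the 9 genes in RefSeq (GRCm38.p6). The 250 bases before the start site are shown for Pdcd1 and Havcr2, the receptor genes with the largest side difference in the L-NIO model, and for Vsir, the member with the highest level per length in each of the 5 groups. Capitals mark GAGGAA, the core letters bound by PU.1, a transcription factor of myeloid cells that belongs to the ETS family. The windows are chr1:94052554-94052803 on the minus strand for Pdcd1, chr11:46454681-46454930 on the plus strand for Havcr2 and chr10:60346601-60346850 on the plus strand for Vsir, each written 5′ to 3′ along the gene.
Pdcd1: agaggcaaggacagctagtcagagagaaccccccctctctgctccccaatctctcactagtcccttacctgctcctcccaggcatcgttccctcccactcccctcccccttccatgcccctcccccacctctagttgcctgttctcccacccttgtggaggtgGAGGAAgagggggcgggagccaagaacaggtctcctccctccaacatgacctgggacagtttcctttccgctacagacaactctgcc
Havcr2: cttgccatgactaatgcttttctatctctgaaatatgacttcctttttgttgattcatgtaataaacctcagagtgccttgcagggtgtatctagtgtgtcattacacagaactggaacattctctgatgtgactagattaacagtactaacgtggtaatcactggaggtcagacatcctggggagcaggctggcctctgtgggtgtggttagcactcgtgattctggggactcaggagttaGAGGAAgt
Vsir: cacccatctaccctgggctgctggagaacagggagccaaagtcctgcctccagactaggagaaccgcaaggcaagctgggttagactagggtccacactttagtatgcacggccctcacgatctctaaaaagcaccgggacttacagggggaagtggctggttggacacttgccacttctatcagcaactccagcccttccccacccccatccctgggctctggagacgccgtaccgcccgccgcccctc
GAGGAA, searched on both strands, was found in 3 of the 6 windows (Pdcd1, Havcr2 and Pdcd1lg2) and in 23.2% of all 32851 promoter windows of this length. It began 87 bases before the start in Pdcd1 and 8 bases before the start in Havcr2, and these letters were not in the Vsir, Cd274 or Cd80 window. The AP-1 letters TGANTCA were in the Havcr2 and Cd80 windows and in 6.75% of all windows. An interferon-response pattern (GAAA, 2 free bases, then GAAA), found in 2.98% of all windows, was in none of the 6, and neither was an NF-kB pattern (GGG, 2 free bases, then TTTCC), found in 1.41%. None of these motifs overlapped another in the windows printed. A match describes the letters of a window and says nothing of what binds there.

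In the L-NIO model, 7 of the 8 tested members stood higher in every injured library than in every library of the opposite side, and the exception was Cd80. This comparison shares no library with LPC-Ipsil against Sham-Ipsil, where Pdcd1 and Icos had been named. Whether values of the L-NIO groups also entered the choice of the set is not recorded, so the comparison is not taken as independent of that choice. The share of all 16795 tested genes with all 3 libraries above all 3 was 7.90%. The same 7 members had an unadjusted p under 0.05 in edgeR's quasi-likelihood test, as did 4.83% of tested genes in the higher direction. After Benjamini-Hochberg adjustment over all tested genes, 0 members were called higher, and the share of all tested genes called higher was 0%. DESeq2 called 2 members (Cd274 and Cd86), beside 1.08% of the genes it tested. Fitted to these 2 groups alone, edgeR called 3 (Cd274, Havcr2 and Cd86), beside 2.21%. Without LPC-Ipsil replicate 3, a library that enters this comparison only through the shared estimate of spread, edgeR called 5 (Pdcd1, Cd274, Havcr2, Cd86 and Vsir), beside 2.22%. The median log2 fold change was 1.73 over the 8 tested members and -0.02 over all tested genes. The ninth gene, Pdcd1lg2, did not pass the filter on low counts. A member that passed only through the group where it is high had to differ. Pdcd1 and Icos passed almost only through injured libraries. Away from the injection sites no library held more than 10 counts of Pdcd1 or 5 of Icos, and the filter's minimum count was 10. Their separation was thus largely set by the filter.

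**Figure D1:**
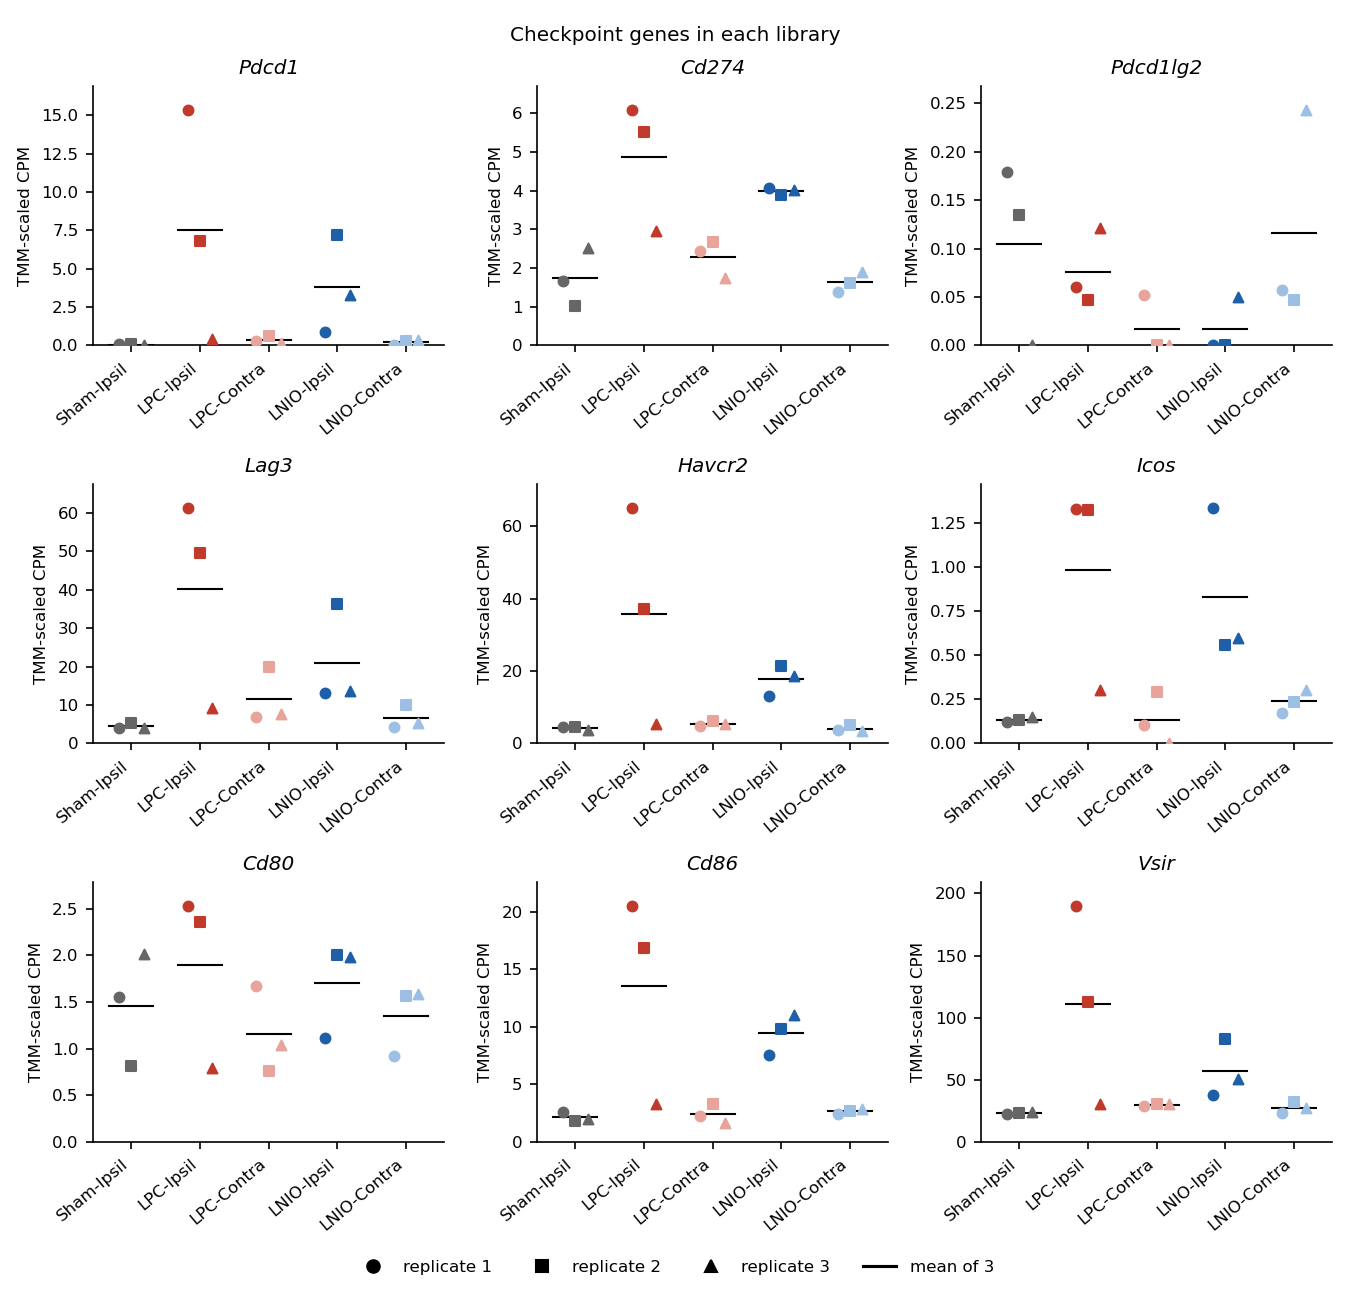
Level of each of the 9 genes in each library as TMM-scaled CPM, with a vertical axis of its own for each gene starting at 0. Points are libraries, with replicate numbers by shape, and bars are group means of 3. LPC-Ipsil replicate 3 (red triangle) lies below the other LPC-Ipsil libraries for all genes except Pdcd1lg2, and the LNIO-Ipsil libraries lie above LNIO-Contra for all except Pdcd1lg2 and Cd80.

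Pdcd1, the gene of the inhibitory receptor PD-1, was nearly silent at the saline site. Its level was 0.0598, 0.0676 and 0 CPM in Sham-Ipsil replicates 1 to 3, which are 2 counts in all. It stood at 15.4, 6.80 and 0.423 CPM in LPC-Ipsil and at 0.890, 7.17 and 3.27 CPM in LNIO-Ipsil. The opposite sides held 0.313, 0.583 and 0.130 CPM in LPC-Contra and 0, 0.284 and 0.366 CPM in LNIO-Contra. All LNIO-Ipsil libraries were above all LNIO-Contra and Sham-Ipsil libraries, while LPC-Ipsil replicate 3 fell inside the LPC-Contra range. LNIO-Ipsil exceeded LNIO-Contra by a log2 fold change of 4.07 ± 1.18 (SE; edgeR adjusted p = 0.363, n = 3 and 3). The summed counts were 211 and 12, a ratio per total count of 17.7 with an exact 95% interval of 9.91 to 34.8 that covers counting error only. Within LNIO-Ipsil the libraries themselves spanned 0.890 to 7.17 CPM, a spread that this interval leaves out.

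Lag3 encodes LAG-3, an inhibitory receptor for MHC class II. Its level was 4.12, 5.27 and 4.12 CPM in Sham-Ipsil, 61.3, 49.5 and 9.31 CPM in LPC-Ipsil and 13.2, 36.1 and 13.6 CPM in LNIO-Ipsil. It was 6.99, 19.8 and 7.65 CPM in LPC-Contra and 4.32, 9.92 and 5.24 CPM in LNIO-Contra. Replicate 2 was the highest library in each of LPC-Contra, LNIO-Ipsil and LNIO-Contra, and LPC-Contra replicate 2 lay above LPC-Ipsil replicate 3. The log2 fold change of LNIO-Ipsil over LNIO-Contra was 1.68 ± 0.65 (SE; edgeR adjusted p = 0.647), with no overlap between the groups. Against LPC-Contra, Lag3 in LPC-Ipsil was higher by 1.80 ± 0.64 on the log2 scale (edgeR adjusted p = 0.227). That difference was 2.92 (edgeR adjusted p = 0.00442) without LPC-Ipsil replicate 3 and LPC-Contra replicate 2. The genes of its ligand, a list of 7 MHC class II genes, summed to 20.4 to 21.9 CPM in Sham-Ipsil, 20.9 to 73.4 CPM in LPC-Ipsil and 20.4 to 45.7 CPM in LNIO-Ipsil. None of the 7 was called in either injured-side comparison with the opposite side by edgeR. In each, 3 of the 7 had an unadjusted p under 0.05 in the higher direction, beside 4.83% of tested genes after L-NIO and 8.53% after LPC.

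Havcr2, the gene of TIM-3, held 4.60, 4.53 and 3.77 CPM in Sham-Ipsil. Levels were 65.2, 37.2 and 5.26 CPM in LPC-Ipsil and 13.2, 21.4 and 18.7 CPM in LNIO-Ipsil. The opposite sides lay near the sham level, at 4.69, 6.30 and 5.31 CPM in LPC-Contra and 3.74, 5.01 and 3.47 CPM in LNIO-Contra. Every LNIO-Ipsil library was above every LNIO-Contra library, whereas LPC-Ipsil replicate 3 lay within the LPC-Contra range. The log2 fold change was 2.12 ± 0.60 (SE) in the L-NIO model (edgeR adjusted p = 0.358) and 2.72 ± 0.60 in the LPC model (edgeR adjusted p = 0.0629). Without LPC-Ipsil replicate 3, a library picked out after the data were seen, the edgeR adjusted p values were 0.000673 in the L-NIO model and 7.8e-06 in the LPC model.

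Icos encodes the costimulatory receptor ICOS and was scarce throughout. Sham-Ipsil held 0.120, 0.135 and 0.151 CPM, LPC-Ipsil 1.33, 1.32 and 0.302 CPM and LNIO-Ipsil 1.34, 0.556 and 0.595 CPM. LPC-Contra held 0.104, 0.292 and 0 CPM, and LNIO-Contra held 0.173, 0.236 and 0.305 CPM. Neither injured group overlapped its opposite side, but LPC-Ipsil replicate 3 and LPC-Contra replicate 2 both held 5 counts, so that separation in the LPC model rests on library scaling alone. The log2 fold change over the opposite side was 1.77 ± 0.68 (SE; edgeR adjusted p = 0.592) after L-NIO and 2.82 ± 0.73 (edgeR adjusted p = 0.0713) after LPC. These rest on 46 against 13 counts and on 55 against 7 counts, summed over 3 libraries a group. The highest LNIO-Ipsil library for Icos, replicate 1, was the lowest of that group for Pdcd1.

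Cd274 encodes PD-L1, the main ligand of PD-1. It stood at 1.67, 1.01 and 2.51 CPM in Sham-Ipsil, 6.09, 5.52 and 2.96 CPM in LPC-Ipsil and 4.06, 3.89 and 4.01 CPM in LNIO-Ipsil. Levels were 2.45, 2.68 and 1.75 CPM in LPC-Contra and 1.38, 1.61 and 1.89 CPM in LNIO-Contra. The LNIO-Ipsil libraries had an SD of 0.0885 CPM, and both injured groups were clear of their opposite sides. The log2 fold change was 1.29 ± 0.33 (SE; edgeR adjusted p = 0.319, DESeq2 adjusted p = 0.0274) in the L-NIO model and 1.08 ± 0.33 (edgeR adjusted p = 0.126) in the LPC model. Pdcd1lg2, which encodes PD-L2, the other PD-1 ligand, summed to 5, 4, 1, 1 and 6 counts in Sham-Ipsil, LPC-Ipsil, LPC-Contra, LNIO-Ipsil and LNIO-Contra. It had no library above 4 counts and was not tested. At this depth a count of 0 allows up to 3 counts in a library, or 0.143 to 0.201 CPM, so small differences in Pdcd1lg2 were not detectable. It showed no rise like that of Pdcd1, which had 2 counts in Sham-Ipsil, 406 in LPC-Ipsil and 211 in LNIO-Ipsil.

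Cd86 and Cd80, the genes of the B7 ligands, differed from each other. Cd86 held 2.57, 1.82 and 1.96 CPM in Sham-Ipsil, 20.5, 16.9 and 3.26 CPM in LPC-Ipsil and 7.57, 9.78 and 11.1 CPM in LNIO-Ipsil. It held 2.24, 3.27 and 1.62 CPM in LPC-Contra and 2.36, 2.69 and 2.80 CPM in LNIO-Contra. The LNIO-Ipsil libraries were all above LNIO-Contra, with a log2 fold change of 1.85 ± 0.48 (SE; edgeR adjusted p = 0.319, DESeq2 adjusted p = 0.0138). In the LPC model the log2 fold change was 2.51 ± 0.49 (edgeR adjusted p = 0.0629), and LPC-Ipsil replicate 3 lay just under LPC-Contra replicate 2.

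Cd80 showed no such separation. It stood at 1.55, 0.811 and 2.01 CPM in Sham-Ipsil, 2.53, 2.36 and 0.786 CPM in LPC-Ipsil and 1.11, 2.001 and 1.98 CPM in LNIO-Ipsil. Its opposite sides held 1.67, 0.758 and 1.04 CPM in LPC-Contra and 0.921, 1.56 and 1.58 CPM in LNIO-Contra. All groups overlapped. The log2 fold change was 0.32 ± 0.46 (SE; 95% interval -0.67 to 1.31) after L-NIO and 0.71 ± 0.47 (-0.29 to 1.71) after LPC, intervals that hold both no change and a more than 2-fold rise.

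Vsir encodes VISTA, an inhibitory receptor and ligand that myeloid cells carry at rest. Sham-Ipsil held 22.2, 23.2 and 23.8 CPM, LPC-Ipsil 190.1, 112.4 and 30.0 CPM, and LNIO-Ipsil 37.7, 82.8 and 50.3 CPM. LPC-Contra held 28.6, 30.3 and 30.3 CPM, and LNIO-Contra held 23.1, 31.6 and 26.8 CPM. The LNIO-Ipsil group was clear of LNIO-Contra (log2 fold change 1.07 ± 0.47 SE, edgeR adjusted p = 0.780), and LPC-Ipsil replicate 3 lay within the LPC-Contra range. The LPC side difference was 1.90 ± 0.47 (edgeR adjusted p = 0.0701), and 2.35 (edgeR adjusted p = 5.9e-05) without that library.

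In the LPC model as a whole, 7 of the 8 tested members had an unadjusted p under 0.05 by edgeR against the opposite side, where 8.53% of all tested genes did in the higher direction. Only Icos and Cd274 had all 3 injured libraries above all 3 opposite ones, as did 7.05% of tested genes. None was called by edgeR after adjustment, in which 0% of all tested genes were called higher. DESeq2 called 6 members, beside 3.68% of the genes it tested. Without LPC-Ipsil replicate 3 edgeR called 7, beside 5.26%, and without LPC-Contra replicate 2 as well it called 7, beside 6.56%. Without LPC-Contra replicate 2 alone it called 0. Without LPC-Ipsil replicate 3 the log2 fold change was 3.24 for Icos, 1.33 for Cd274, 2.97 for Cd86 and 1.07 for Cd80. Without LPC-Contra replicate 2 it was 3.97, 1.21, 2.80 and 0.48 for the same genes. This comparison shares the LPC-Ipsil libraries with LPC-Ipsil against Sham-Ipsil, where Pdcd1 and Icos had been named.

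**Figure D2:**
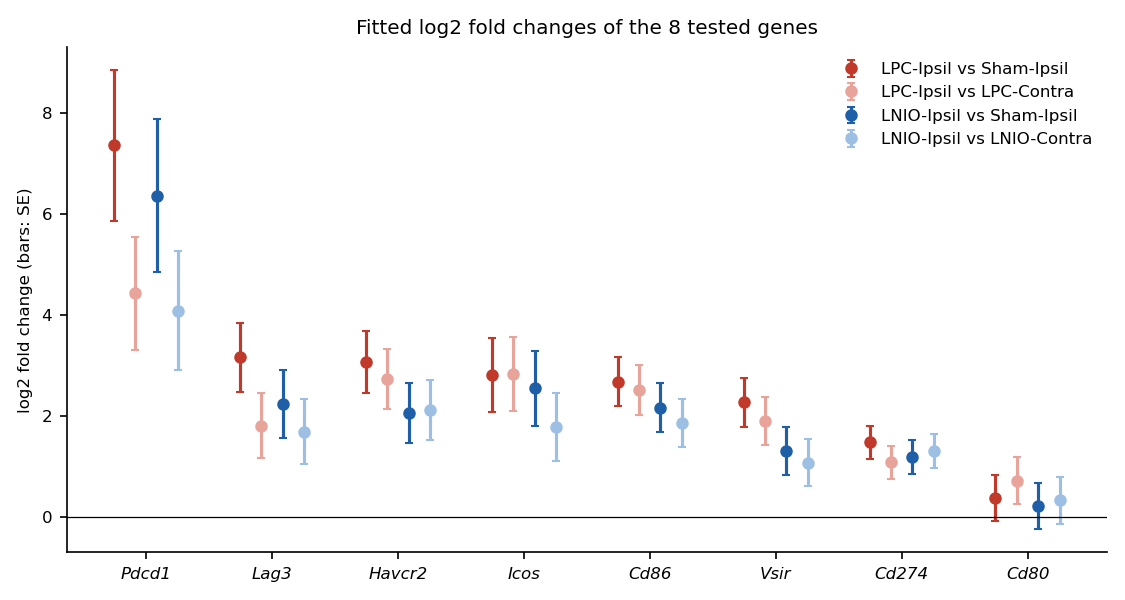
Fitted log2 fold change of each tested gene in 4 comparisons, with bars of 1 SE. Pdcd1 has the highest value in each comparison and the widest error, and Cd80 lies within 2 SE of 0 in each. LPC-Ipsil, LNIO-Ipsil and Sham-Ipsil libraries are each used in 2 of the comparisons.

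Against the saline site, LPC-Ipsil differed most, and Pdcd1 and Icos had already been named from this comparison. The log2 fold changes were 7.35 ± 1.49 (SE) for Pdcd1, 3.16 ± 0.69 for Lag3, 3.06 ± 0.61 for Havcr2 and 2.81 ± 0.73 for Icos. They were 2.67 ± 0.49 for Cd86, 2.26 ± 0.48 for Vsir, 1.47 ± 0.33 for Cd274 and 0.37 ± 0.46 for Cd80. Since Pdcd1 and Icos were named from these values, the counts of calls given here describe the fits and are no test of the members. In edgeR 7 of the 8 were called higher, beside 4.19% of all tested genes, and the same 7 had all libraries above all sham libraries, beside 14.0%. The count stayed at 7 without LPC-Ipsil replicate 3, beside 7.83%. It was 0 without LPC-Ipsil replicate 1 or 2 or any 1 sham library, 0 with only these 2 groups in the fit and 0 by limma on FPKM. Pdcd1 rests on 406 counts against 2, and its log2 fold change was 7.91 without LPC-Ipsil replicate 3.

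LNIO-Ipsil was also compared with the saline site, using the same sham libraries as the LPC comparison. Log2 fold changes were 6.36 ± 1.52 (SE; edgeR adjusted p = 0.263) for Pdcd1, 2.54 ± 0.74 (0.272) for Icos, 2.22 ± 0.67 (0.297) for Lag3 and 2.16 ± 0.49 (0.263) for Cd86. They were 2.05 ± 0.60 for Havcr2, 1.30 ± 0.47 for Vsir, 1.18 ± 0.33 for Cd274 and 0.21 ± 0.46 for Cd80. All 3 libraries were above all 3 sham libraries for 7 members, beside 10.0% of tested genes, and the same number had an unadjusted p under 0.05 by edgeR, beside 5.77%. After adjustment edgeR called 0 members and 0% of all tested genes higher, while DESeq2 called 2 members, beside 1.21% of the genes it tested. The count was 6 by edgeR without LPC-Ipsil replicate 3, beside 2.25%, and 5 with only these 2 groups in the fit, beside 2.18%.

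The 2 injured sides overlapped for all 8 tested members, and LNIO-Ipsil had the lower fitted level each time. Log2 fold changes of LNIO-Ipsil over LPC-Ipsil ran from -1.01 ± 0.56 (SE) for Havcr2 to -0.16 ± 0.46 for Cd80, with edgeR adjusted p values of 0.598 to 0.954. No member was called higher (0% of tested genes) or had an unadjusted p under 0.05 in the lower direction, where 5.44% of tested genes did. DESeq2 called 0 members too, beside 0.0365% of genes called lower. All 3 LNIO-Ipsil libraries lay below all LPC-Ipsil libraries for 0 members and for 7.61% of tested genes. These counts depended on LPC-Ipsil replicate 3: without it Havcr2 (log2 -1.51, edgeR adjusted p = 0.0164) and Vsir (-1.40, 0.0273) passed, beside 1.23% of genes called lower. Pdcd1 differed by -0.995 ± 0.898, with a 95% interval of -2.93 to 0.94. The side differences of the 2 models were also compared directly. That contrast ran from -1.05 ± 1.03 for Icos to 0.21 ± 0.46 for Cd274, and each of the 8 members had an edgeR adjusted p of 1.

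The opposite sides were also compared with the saline site. In LPC-Contra the log2 fold change over Sham-Ipsil was 1.35 ± 0.67 (SE) for Lag3 (edgeR adjusted p = 0.530) and 2.93 ± 1.91 for Pdcd1 (edgeR adjusted p = 0.607), the latter from 18 counts against 2. Without LPC-Contra replicate 2 these were 0.71 and 2.35. In LNIO-Contra it was 2.28 ± 2.03 for Pdcd1, 0.77 ± 0.85 for Icos and 0.54 ± 0.67 for Lag3, and from -0.12 to 0.30 for the other 5, with an edgeR adjusted p of 0.9996 for each of the 8. The 95% interval for Pdcd1 in LNIO-Contra ran from -2.10 to 6.67, so these libraries do not show that the levels were alike. Pdcd1, Lag3, Havcr2 and Vsir had all LPC-Contra libraries above all sham libraries, beside 7.06% of all tested genes. In LNIO-Contra this held for Icos only, beside 5.01%. No member was called in either comparison by edgeR or DESeq2, with or without LPC-Contra replicate 2, none had an unadjusted p under 0.05 by edgeR with all libraries (by DESeq2, Lag3 in LPC-Contra did), and 0% of tested genes were called higher.

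Per unit of gene length, VISTA was the most abundant of the 9. In Sham-Ipsil the authors' FPKM (fragments relative to gene length and library depth) were 4.32 ± 0.115 (SD, n = 3) for Vsir, 2.01 ± 0.284 for Lag3 and 1.49 ± 0.165 for Havcr2, and each gene was clear of the next. Cd86 (0.544 FPKM), Cd274 (0.450 FPKM) and Cd80 (0.370 FPKM) overlapped with their neighbours, and Pdcd1lg2 (0.0504 FPKM), Icos (0.0370 FPKM) and Pdcd1 (0.0207 FPKM) came last. Pdcd1 took other ranks at the injection sites, the fourth in LPC-Ipsil (3.63 ± 3.56 FPKM) and the fifth in LNIO-Ipsil (1.86 ± 1.54 FPKM), where it overlapped Cd86 (3.47 ± 2.29 and 2.47 ± 0.552 FPKM). In LPC-Ipsil replicate 3 alone Pdcd1 held 0.210 FPKM and Cd86 0.855 FPKM. Vsir, Lag3 and Havcr2 remained the top 3 in all 5 groups. In LNIO-Ipsil they held 10.8 ± 4.37, 9.43 ± 5.80 and 6.22 ± 1.56 FPKM, and their libraries overlapped.

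Transcripts of the CD3 chains were few, while those of Trbc2, a constant segment of the T cell receptor beta chain, were not. The CD3 chains Cd3e, Cd3d and Cd3g, which every T cell receptor needs at the surface, summed to 4 counts in Sham-Ipsil, 2 in LPC-Ipsil, 0 in LPC-Contra, 9 in LNIO-Ipsil and 5 in LNIO-Contra. Pdcd1 alone had 406 counts in LPC-Ipsil and 211 in LNIO-Ipsil, and Icos had 55 and 46. Trbc2 had 529 counts in LPC-Ipsil and 936 in LNIO-Ipsil, more than Pdcd1 in both. Its transcripts were not confined to injured tissue. The 5 T cell receptor complex genes in the table, Trbc2 among them, summed to 12.55 to 15.07 CPM in Sham-Ipsil and 5.61 to 14.08 CPM in LPC-Ipsil. They summed to 10.11 to 22.05 CPM in LPC-Contra, 16.11 to 17.86 CPM in LNIO-Ipsil and 18.1 to 25.95 CPM in LNIO-Contra. In LNIO-Ipsil replicate 1, where Icos was highest, the 3 CD3 chains had 0 counts. The CD3 chains in LNIO-Ipsil replicates 1 to 3 had 0, 4 and 5 counts, beside 16, 129 and 66 of Pdcd1. The 3 counts that a count of 0 allows correspond to 0.166 CPM in LNIO-Ipsil replicate 1.

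**Figure D3:**
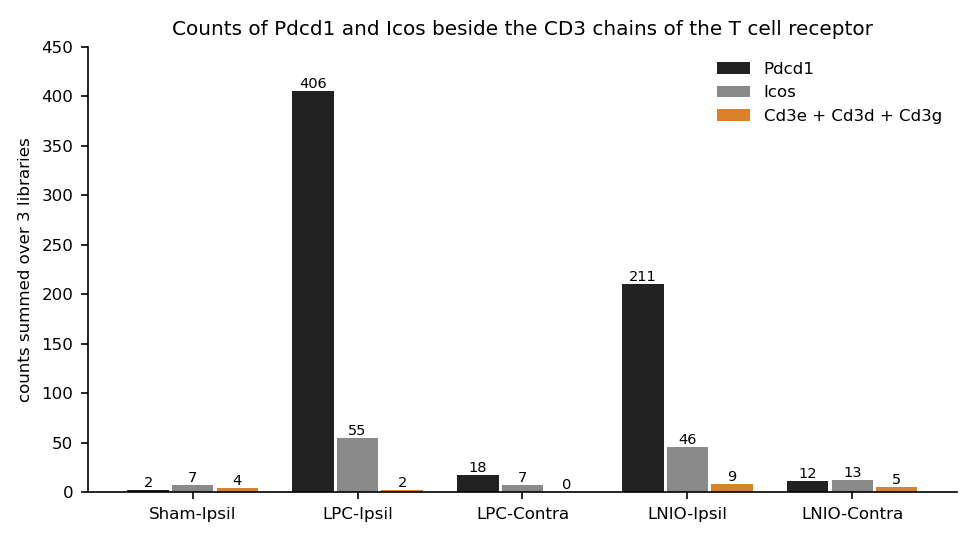
Counts summed over the 3 libraries of each group for Pdcd1, Icos and the 3 CD3 chains together, on an axis starting at 0. Pdcd1 reaches 406 and 211 counts at the injection sites, and the CD3 chains do not exceed 9 in any group.

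Of the 22 T cell symbols listed, 20 had an entry in the count table and 11 were tested. Their summed level was 26.8 to 61.5 CPM in Sham-Ipsil, 39.5 to 55.0 CPM in LPC-Ipsil and 36.8 to 52.7 CPM in LNIO-Ipsil. It was 37.4 to 66.6 CPM in LPC-Contra and 49.8 to 58.2 CPM in LNIO-Contra, so the injured sides did not exceed the rest. Trbc2, Cd4, and Tcf7, a transcription factor of T cells and other lineages, made up most of it. Trbc2 was 17.8, 16.6 and 15.8 CPM in LNIO-Ipsil and 19.9, 17.6 and 25.8 CPM in LNIO-Contra. Cd4 was 5.06, 20.3 and 9.71 CPM in LNIO-Ipsil and 16.2, 28.1 and 14.0 CPM in LNIO-Contra. Cd8a, the coreceptor of cytotoxic T cells, had 0, 3, 0, 9 and 2 counts in Sham-Ipsil, LPC-Ipsil, LPC-Contra, LNIO-Ipsil and LNIO-Contra. No T cell gene was called in either injured side against its opposite side by edgeR. At an unadjusted p under 0.05 there were 0 of 11 in the L-NIO model (beside 4.83% of tested genes higher). In the LPC model there were 2 of 11, both higher (beside 8.53%). Without LPC-Ipsil replicate 3, 0 of 12 were called against LPC-Contra, with 2 higher and 2 lower at an unadjusted p under 0.05. Against Sham-Ipsil that fit called 1 of 12 higher, beside 7.83% of genes. Cd5, another gene of the list, had 15, 19 and 3 counts in LPC-Ipsil, 1, 5 and 1 in LPC-Contra and 0, 2 and 2 in Sham-Ipsil. Natural killer, B cell and neutrophil lists summed to at most 2.37, 1.87 and 1.14 CPM in any library.

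Microglial and astrocyte transcripts moved with the members. The 9 identity genes found in the table, among them P2ry12, Tmem119 and Cx3cr1, summed to 658, 925 and 895 CPM in LNIO-Ipsil and 326, 396 and 360 CPM in LNIO-Contra. All 9 were above the opposite side in every LNIO-Ipsil library, beside 7.90% of tested genes. By edgeR 7 of the 9 had an unadjusted p under 0.05, beside 4.83% of tested genes in the higher direction, and 0 were called, as were 0% of tested genes. Their median log2 fold change was 1.27, against -0.02 over all tested genes. The 12 genes of damage-associated microglia had a median of 3.11 with 11 at an unadjusted p under 0.05 (beside the same 4.83%), and 0 called by edgeR. The summed level of 7 dendritic cell genes was 34.1 to 36.5 CPM in LNIO-Ipsil and 18.7 to 20.8 CPM in LNIO-Contra. Of these, Itgax, which activated microglia share, held 12.5, 17.6 and 19.9 CPM in LNIO-Ipsil and 0.633, 2.27 and 0.975 CPM in LNIO-Contra, while Flt3 held 11.5, 9.84 and 9.27 CPM and 12.5, 7.28 and 9.56 CPM. For 7 monocyte genes the sums were 100.8 to 137.2 CPM and 65.0 to 90.8 CPM. The 4 astrocyte genes summed to 1659, 2400 and 1565 CPM in LNIO-Ipsil and 995, 1299 and 1240 CPM in LNIO-Contra, with no overlap. In LPC-Ipsil they summed to 3670, 2796 and 1522 CPM, against 1335 to 1548 CPM in LPC-Contra. None of the 4 was called by edgeR in either model against the opposite side. In each model 2 had an unadjusted p under 0.05, both higher, beside 4.83% of tested genes after L-NIO and 8.53% after LPC. The part of these cell types in the members' levels was not tested.

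Set against the microglial identity genes, the members fell into different patterns. The ratio is the member's count per 1000 counts of the 9 identity genes in the same library, and it is a description with no test. Vsir kept a similar ratio, at 65.3 ± 8.01 (SD, n = 3) in Sham-Ipsil, 69.8 ± 7.02 in LPC-Ipsil, 67.7 ± 18.9 in LNIO-Ipsil and 75.0 ± 4.64 in LNIO-Contra. Cd274 likewise overlapped, at 4.93 ± 2.40, 4.05 ± 2.05, 4.95 ± 1.06 and 4.51 ± 0.640 in the same groups.

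Havcr2 and Cd86 were higher in ratio after L-NIO. Havcr2 stood at 20.0, 23.1 and 20.9 per 1000 in LNIO-Ipsil, 11.5, 12.7 and 9.65 in LNIO-Contra and 11.7, 13.2 and 11.4 in Sham-Ipsil. Cd86 stood at 11.5, 10.6 and 12.4 per 1000 in LNIO-Ipsil, 7.23, 6.81 and 7.78 in LNIO-Contra and 6.52, 5.32 and 5.93 in Sham-Ipsil. For both genes the LNIO-Ipsil values were clear of LNIO-Contra and Sham-Ipsil. Havcr2 stood at 26.64, 22.16 and 11.32 per 1000 in LPC-Ipsil and 12.25, 13.25 and 13.65 in LPC-Contra. LPC-Ipsil replicates 1 and 2 were thus above LPC-Contra and Sham-Ipsil for Havcr2, and replicate 3 was below both. Cd86 was also clear in LPC-Ipsil (8.39, 10.1 and 7.03) of both Sham-Ipsil and LPC-Contra (5.85, 6.87 and 4.16), and there LPC-Ipsil replicate 3 was included.

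Among the tested members, the mean ratio in LNIO-Ipsil over that in LNIO-Contra was highest for Pdcd1, at 7.36, and lowest for Cd80, at 0.544. Pdcd1 rests on few counts in the control groups. It was at 1.35, 7.75 and 3.66 per 1000 in LNIO-Ipsil, 6.29, 4.05 and 0.911 in LPC-Ipsil, 0, 0.717 and 1.02 in LNIO-Contra and 0.152, 0.197 and 0 in Sham-Ipsil. Cd80 was at 1.69, 2.16 and 2.22 per 1000 in LNIO-Ipsil against 2.82, 3.94 and 4.399 in LNIO-Contra, and at 1.04, 1.41 and 1.69 in LPC-Ipsil against 3.94, 2.37 and 6.08 in Sham-Ipsil. These groups did not overlap, although the CPM of Cd80 did. In LPC-Contra, Cd80 was at 4.36, 1.59 and 2.66 and Pdcd1 at 0.817, 1.23 and 0.333, and LPC-Ipsil overlapped LPC-Contra for both genes. Lag3 was at 25.1, 29.5 and 20.0 in LPC-Ipsil, above Sham-Ipsil (10.5, 15.4 and 12.5) but overlapping LPC-Contra (18.2, 41.7 and 19.6), and LNIO-Ipsil (20.1, 39.1 and 15.2) overlapped LNIO-Contra (13.2, 25.1 and 14.6). Icos, at 2.03, 0.601 and 0.665 in LNIO-Ipsil and 0.529, 0.597 and 0.846 in LNIO-Contra, overlapped too.

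**Figure D4:**
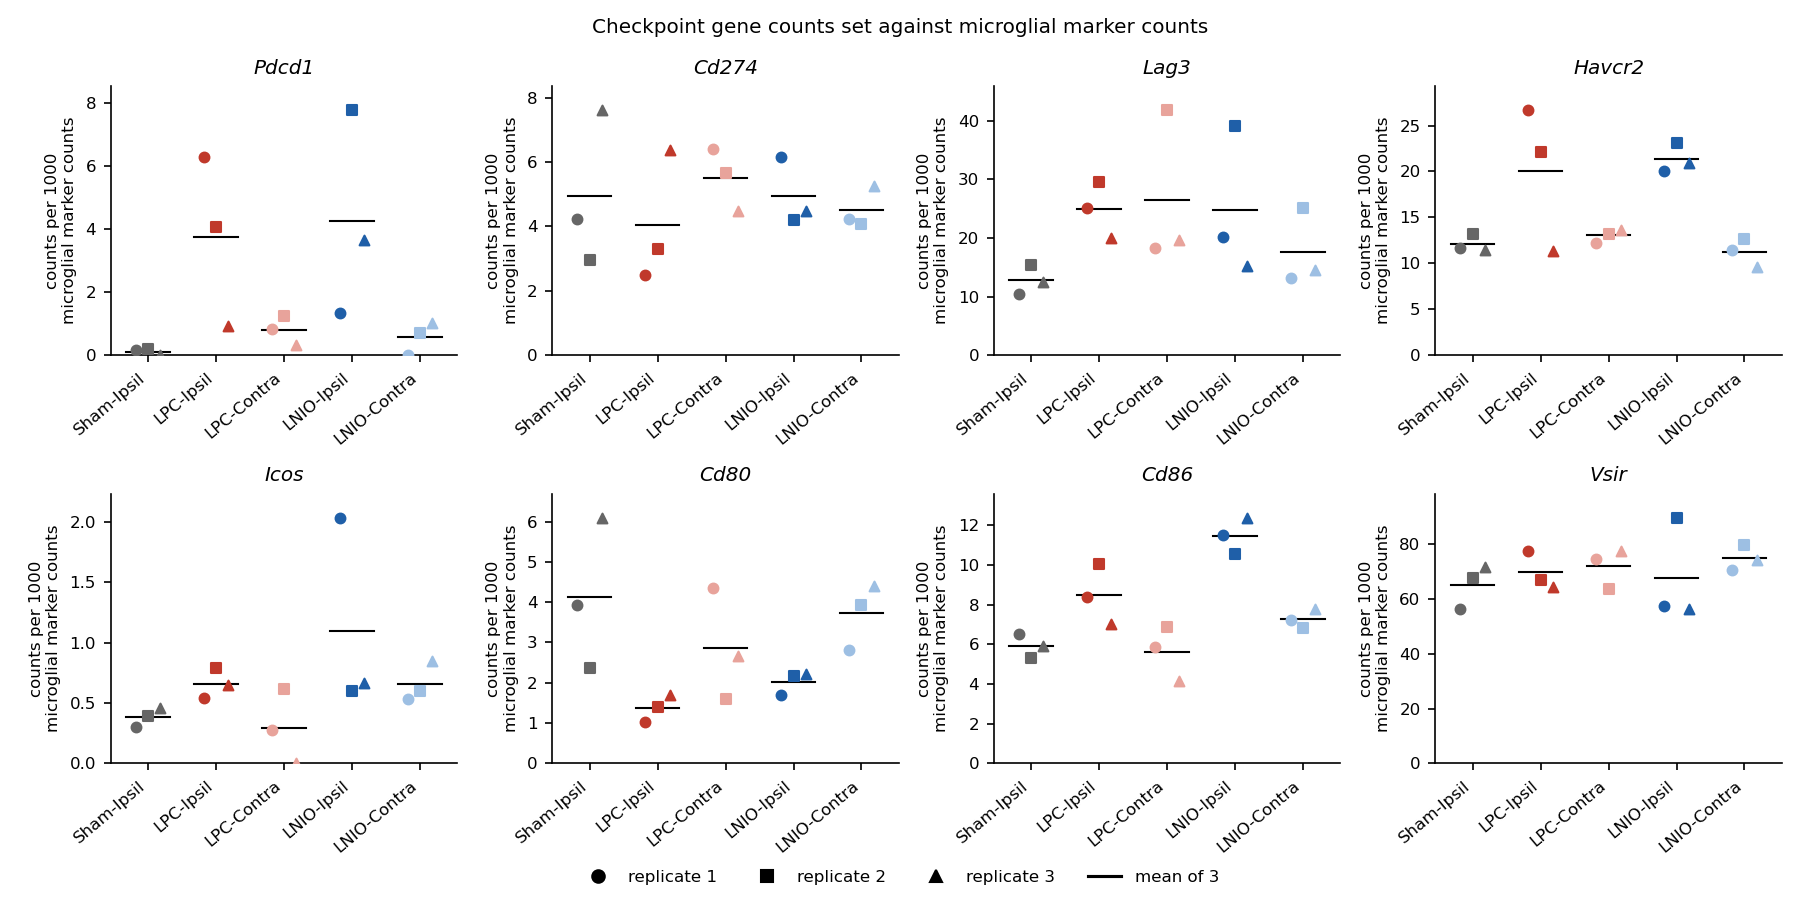
Counts of each tested gene per 1000 counts of 9 microglial identity genes in the same library, each panel with its own axis starting at 0, points for libraries and bars for means of 3. Vsir and Cd274 overlap across groups, Havcr2 and Cd86 in LNIO-Ipsil lie above LNIO-Contra, and Cd80 in LNIO-Ipsil lies below it.

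Across the 15 libraries, which share sequencing depth and group structure, the members other than Cd80 varied together. Pearson's r of log2(CPM + 0.5) was 0.975 for Pdcd1 and Vsir, 0.969 for Havcr2 and Vsir and 0.968 for Havcr2 and Cd86. Cd80 reached 0.464 to 0.659 with the other tested members. The genes most like each member, among 13316 candidates by the same measure over 15 libraries, were Hcls1, Cd14 and Ctsd for Pdcd1 (0.982 to 0.983) and Dock2, Nckap1l and Hk2 for Havcr2 (0.992 to 0.996). They were H2-K1, Itgb5 and Ucp2 for Lag3 (0.960 to 0.974), Trem2, Tyrobp and Cst7 for Cd86 (0.984 to 0.989) and Itgb5, Cx3cr1 and Axl for Vsir (0.989 to 0.993). Sat1, Gcnt1 and Itgam were most like Icos (0.926 to 0.941), and Apobr, Csf2rb2 and Gbp2 were most like Cd274 (0.929 to 0.937). Cd80 had no close match, with Mgat4a, Nhlrc3 and Kcnj2 at 0.807 to 0.814. These values describe how levels moved over 5 groups that differ in injury, and libraries of a group are not independent points for them.

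Other genes of the checkpoint pathways were examined as a list of 45, of which 44 had a single entry in the table and 33 were tested. In LNIO-Ipsil against LNIO-Contra edgeR called 0, with 8 higher (beside 4.83% of all tested genes) and 0 lower at an unadjusted p under 0.05, and 12 of 33 with all injured libraries above (beside 7.90%). Their median log2 fold change was 0.51. DESeq2 called 5 of them (beside 1.08%). In LPC-Ipsil against LPC-Contra edgeR called 0, with 15 higher (beside 8.53%) and 0 lower at an unadjusted p under 0.05. Without LPC-Ipsil replicate 3 it called 11 (beside 5.26%), and without LPC-Contra replicate 2 it called 0, with 11 at an unadjusted p under 0.05. By kind, 1 of 9 tested receptors, 6 of 22 ligands and partners and 1 of 2 phosphatases had an unadjusted p under 0.05 after L-NIO, and 4 of 9, 10 of 22 and 1 of 2 did after LPC.

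Lgals9, the gene of the TIM-3 ligand galectin 9, had the smallest p of the list after L-NIO. It held 20.7, 22.5 and 30.7 CPM in LNIO-Ipsil and 8.28, 6.19 and 5.61 CPM in LNIO-Contra, with no overlap. Its log2 fold change was 1.88 ± 0.39 (SE; edgeR adjusted p = 0.186). Ptpn6, which encodes the phosphatase SHP-1 that inhibitory receptors recruit, held 15.8, 19.9 and 17.9 CPM against 4.66, 5.15 and 4.27 CPM (log2 1.92 ± 0.56 SE, edgeR adjusted p = 0.363). The other 4 of the 6 genes with the smallest p were Cd48, a ligand of the SLAM family receptor 2B4 (2.43 ± 0.61 SE, edgeR adjusted p = 0.299), Lair1, an inhibitory collagen receptor (1.64 ± 0.42, 0.319), Lgals3, the gene of galectin 3 (2.68 ± 0.73, 0.347), and Cd200r1, an inhibitory receptor of myeloid cells (2.17 ± 0.66, 0.367). For each of these 6 genes every LNIO-Ipsil library was above every LNIO-Contra library.

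The partners of CD80, CD86 and ICOS were low or overlapping. Icosl, the ICOS ligand gene, held 4.73, 9.73 and 7.09 CPM in LNIO-Ipsil and 3.62, 3.92 and 4.87 CPM in LNIO-Contra, which overlap (log2 0.80 ± 0.33 SE, edgeR adjusted p = 0.716). Ctla4 had 12, 2 and 7 counts in LNIO-Ipsil, 9, 6 and 2 in LNIO-Contra and 0, 1 and 1 in LPC-Ipsil, and was too low to test. Cd28 had 11, 4 and 5 counts in LNIO-Ipsil and 7, 3 and 1 in LNIO-Contra (log2 0.81 ± 0.87 SE, edgeR adjusted p = 0.9999). It had 10, 19 and 1 counts in LPC-Ipsil and 3, 3 and 1 in LPC-Contra, which overlap through LPC-Ipsil replicate 3. Tigit, another inhibitory receptor of lymphocytes, had at most 2 counts in any library.

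**Figure D5:**
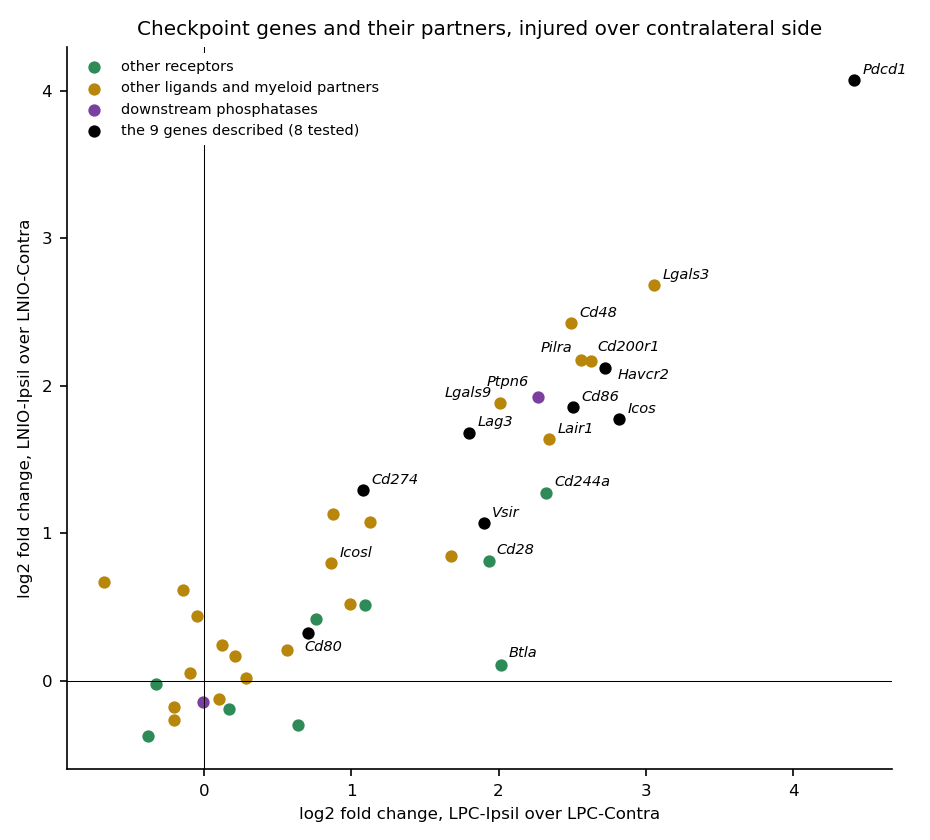
Fitted log2 fold change of injured over opposite side in the LPC model (horizontal) and the L-NIO model (vertical), which share no library, for the 8 tested members and the 33 tested partner genes. Pdcd1 lies farthest out at 4.42 and 4.07, Lgals9, Cd48, Lgals3, Lair1, Cd200r1 and Ptpn6 lie among the members, and Cd80 lies near the origin.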

How the data were processed

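The deposited counts are whole reads per gene symbol for 15 libraries, and the deposited FPKM are the authors' length-scaled values of those genes. Per the submitters' processing notes, HISAT2 2.2.1 and R 4.4.2 were used with GRCm39. Counter, strand setting and annotation are not named there, so overlapping, antisense or near-identical genes are uncertain. All 15 columns of each table matched a library title by model, side and number, 0 columns were left over, and 74 entries repeated a symbol.

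Counts were tested with edgeR 4.0.16 (R 4.3.3): quasi-likelihood test, robust dispersion, TMM scaling, filterByExpr by group (minimum count 10, minimum total 15), a mean per group over all 15 libraries and no block. This left 16795 genes (common dispersion 0.0453), with calls made at an adjusted p (Benjamini-Hochberg) under 0.05. Alternatives used DESeq2 1.42.0, limma 3.58.1 on log2(FPKM + 0.1), other scaling, no filter, only the groups compared, a replicate block and leaving out libraries. The test was checked on simulated counts. SEs are the absolute log2 fold change over √F, and 95% intervals use edgeR's degrees of freedom. Exact intervals on ratios of counts are conditional binomial ones.

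The members and lists were chosen with earlier results of these data known. Named were all 9 members, the 6 partner genes with the smallest adjusted p after L-NIO, a few always named partners and T cell genes, up to 4 genes per cell type list and the 3 genes most like each member (average log2 CPM of at least 1). The cell type lists covered T cells, natural killer cells, B cells, dendritic cells, monocytes, border macrophages, neutrophils, microglia at rest and damage-associated, MHC class II, oligodendrocytes, astrocytes and neurons. Border macrophage genes summed to 6.40 to 18.6 CPM, astrocyte genes to 995 to 3670 CPM and neuron genes to 2347 to 4164 CPM per library.

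Replicate numbers come from the library titles. Deviations of same-numbered LNIO-Ipsil and LNIO-Contra libraries correlated at 0.238 to 0.62, and those of LPC-Ipsil and LPC-Contra at -0.0564 to 0.336. For that reason an alternative fit set a replicate block over the L-NIO libraries only. The main edgeR fit had no block, so its SEs, intervals and p-values for the L-NIO side difference took no account of pairing.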

Additional observations from a re-analysis of the deposited data

Results flagged for a closer look

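Btn2a2, which encodes a butyrophilin of the B7-related family that restrains T cells, had its injured libraries above the contralateral ones in 1 model and below them in the other. It held 1.28, 1.22 and 1.09 CPM in LNIO-Ipsil, all above LNIO-Contra (0.633, 0.709 and 0.914 CPM). It held 0.302, 0.661 and 0.665 CPM in LPC-Ipsil, all below LPC-Contra (1.15, 0.700 and 0.778 CPM). The counts there were 5, 14 and 11 against 22, 12 and 12, which overlap, so that separation rests on library scaling. Sham-Ipsil held 0.777, 1.757 and 0.704 CPM, a range that covers all LNIO-Ipsil libraries and lies above all LPC-Ipsil ones. The side difference after L-NIO minus that after LPC was 1.35 ± 0.59 on the log2 scale (SE; unadjusted p = 0.0389 and adjusted p = 1 by edgeR), so the difference between the models did not pass. These levels rest on 5 to 23 counts in each of these 12 libraries. Among the 8 tested members and 33 tested partner genes it was the only gene with this pattern, and it was picked out by that pattern.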

How the results depend on the processing

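Leaving out each library in turn gave 0 to 7 called members in LPC-Ipsil against Sham-Ipsil, 0 to 6 in LNIO-Ipsil against Sham-Ipsil, 0 to 7 in LPC-Ipsil against LPC-Contra, 0 to 5 members and 0 to 6 partners in LNIO-Ipsil against LNIO-Contra, 0 to 2 in LNIO-Ipsil against LPC-Ipsil and 0 in both comparisons of an opposite side with Sham-Ipsil. Calls over all genes in the same fits ran, in that order, from 0 to 1646, 0 to 398, 0 to 950, 0 to 380 and 0 to 241. For the opposite sides they were 0 to 2 in LPC-Contra and 0 in LNIO-Contra. Because calls over all genes moved too, these ranges are not a result about the members alone. In LPC-Ipsil against Sham-Ipsil the 7 calls fell to 0 without LPC-Ipsil replicate 1 or 2 or any sham library, to 0 with only these 2 groups, to 0 by limma on FPKM and to 4 with no filter. With only the groups compared, the counts were 5 for LNIO-Ipsil against Sham-Ipsil (beside 2.18% of genes) and, against LNIO-Contra, 3 members and 7 partners (beside 2.21%). DESeq2 called 2 members in LNIO-Ipsil against Sham-Ipsil (beside 1.21% of genes) and 2 members and 5 partners against LNIO-Contra (beside 1.08%). It called 6 members in LPC-Ipsil against LPC-Contra (beside 3.68%). Without LPC-Ipsil replicate 3 and LPC-Contra replicate 2 together, 7 members passed in LNIO-Ipsil against Sham-Ipsil, 7 in LPC-Ipsil against LPC-Contra (beside 6.56% of genes), 4 members and 6 partners in LNIO-Ipsil against LNIO-Contra and 3 in LNIO-Ipsil against LPC-Ipsil. For the other comparisons of that fit, and for the fits with no filter or with the replicate block, no share over all genes is given. The cause of these changes in called counts was not tested. In the comparisons that include an injured side, leaving out each library in turn turned the sign of 4 log2 fold changes. Cd80 in LNIO-Ipsil against Sham-Ipsil ran from -0.099 (without Sham-Ipsil replicate 2) to 0.48. In LNIO-Ipsil against LPC-Ipsil, Pdcd1 ran from -1.83 to 0.050 (without LPC-Ipsil replicate 1), Icos from -0.74 to 0.021 (without LPC-Ipsil replicate 2) and Cd80 from -0.51 to 0.10, being above 0 without LPC-Ipsil replicate 1, LPC-Ipsil replicate 2 or LNIO-Ipsil replicate 1. In LNIO-Ipsil against LNIO-Contra all 184 values kept their direction. Sign changes in the comparisons of an opposite side with Sham-Ipsil were not counted. There Cd86 in LPC-Contra went from 0.168 to -0.123 without LPC-Contra replicate 2. With Csf1r alone as the microglial denominator, the LNIO-Ipsil to LNIO-Contra quotient of ratios went from 1.90 to 1.71 for Havcr2 and from 1.58 to 1.44 for Cd86. The mean summed T cell level over 15 libraries was 48.3 CPM, and 15.3 CPM for the receptor complex genes alone. The replicate block, over all libraries or (chosen after seeing the data) over the L-NIO libraries only, left 0 members and 0 partners called in LNIO-Ipsil against LNIO-Contra. With it 6 members were called in LPC-Ipsil against Sham-Ipsil, and it changed no other count of called members. Fits that leave out a library of a group assume that the remaining ones vary like the other groups. Counts below about 3 per library, as for Pdcd1lg2, CD3 chains and Pdcd1 in sham tissue, limit what depth could show.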
